A study of Rattus norvegicus with 16 samples.

Results

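P2ry12, Gpr34, Cx3cr1, Cd33, Bin2 and Plek are 6 genes that microglia, the resident macrophages of the brain, express, and whose signal in the rat hypothalamus was lower after restraint. They were chosen because earlier results of these same arrays showed that difference, so their values under restraint are a description here and carry no test. The platform's annotation assigned 8 of 31042 probe sets to exactly 1 of these genes, which are 6 of the 14217 genes named by such probe sets. P2ry12 and Bin2 had 2 probe sets each and the other genes 1 each. Of the 8 probe sets, 7 passed the filter on dim signals, and the brighter of 2 stood for its gene.

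The arrays came from the hypothalamus of 16 male Wistar rats aged 7 to 8 weeks, with 1 array per rat and 4 rats per group. One group was both restrained and given (R)-(-)-linalool to inhale (stress with linalool), one was restrained without an odour (stress), one inhaled (R)-(-)-linalool unrestrained (linalool), and one had neither (control). Each exposure lasted 2 h, and all rats had been accustomed to the room and the investigators beforehand. Linalool is a fragrant monoterpene alcohol of lavender and other plants. The 8 rats of the first 2 groups are called restrained below, and the other 8 unrestrained.

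Microglia extend fine processes through the tissue and read purines, lipids and chemokines released by neurons and damaged cells. P2Y12, the product of P2ry12, is a receptor for ADP that draws these processes toward sites of ATP release. GPR34 is a receptor for lysophosphatidylserine, CX3CR1 is the receptor for fractalkine, a chemokine made by neurons, and CD33 is an inhibitory receptor that binds sialic acid on other cells. Bin2 encodes a membrane-bending BAR-domain protein of blood-lineage cells, and Plek encodes pleckstrin, a substrate of protein kinase C best known from platelets. In microglia, P2ry12, Gpr34 and Cx3cr1 are widely used as markers of the unstimulated state.

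The measurement was the deposited MAS5 signal of each probe set, with column medians of 67.03 to 127.5. It was normalized between arrays and is given here as log2(signal + 16). Folds below are folds of signal + 16, which for dim genes are smaller than folds of the signal itself. Markers of the labelled tissue were bright, with normalized signals of 4510 to 7720 for the oxytocin gene Oxt and 5470 to 8610 for Pmch, the gene of melanin-concentrating hormone, while Pomc (2.80 to 24.4) and Sim1 were too dim to pass the filter. The BioC spike-in, a control transcript added at hybridization, stood at 903.3 to 960.3 on 3 arrays (linalool rats 2 and 4, stress with linalool rat 2) and at 246.2 to 281.8 on the other 13. The gene of a pituitary hormone subunit, Cga, had a log2 signal of 6.88 in control rat 3 and of 11.06 to 12.27 in the other 15 rats. The number of arrays limits the precision of every value below.

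P2ry12 had log2 signals of 8.20, 8.25, 8.47 and 8.16 in stress rats, against 9.34, 9.03, 9.35 and 9.14 in control rats. In rats with stress and linalool it stood at 8.14, 7.88, 8.07 and 8.78, against 8.83, 9.46, 9.55 and 9.24 in linalool rats. Every restrained rat lay below every unrestrained rat, the closest pair being stress with linalool rat 4 and linalool rat 1. The difference was -0.95 (SE 0.18) for stress minus control, which is 1.93-fold lower, and -1.05 (SE 0.18) for stress with linalool minus linalool, 2.07-fold lower. In whole tissue, fewer cells of a type and less RNA per cell cannot be told apart. The gene's second and dimmer probe set ran from 7.06 to 7.55 in restrained rats and from 7.56 to 8.27 in unrestrained rats. The groups of 8 again did not overlap, by a narrow margin, and the average difference with restraint was -0.72 (SE 0.10) there, against -0.998 (SE 0.12) with the brighter probe set. Across the 16 rats the 2 probe sets correlated at r = 0.94, a value that includes the difference between groups.

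Gpr34 had log2 signals of 6.45, 6.41, 6.44 and 6.07 in stress rats, against 7.93, 7.73, 7.82 and 6.98 in control rats. In stress with linalool rats it stood at 6.43, 6.31, 6.06 and 6.48, against 6.84, 7.94, 7.07 and 7.71 in linalool rats. Both restrained groups sat in a narrow band, while the unrestrained rats were scattered, with control rat 4 and linalool rats 1 and 3 nearest the restrained ones. No restrained rat reached the lowest unrestrained rat. Stress minus control was -1.27 (SE 0.23), or 2.41-fold lower, and stress with linalool minus linalool was -1.07 (SE 0.23), or 2.10-fold lower. Averaged over both odour conditions, the difference of -1.17 (SE 0.16) ranked 1 among the falls of all 18625 probe sets tested.

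Cx3cr1 had log2 signals of 6.78, 7.24, 7.14 and 7.0 in stress rats, against 7.10, 7.51, 7.44 and 7.27 in control rats. With linalool the values were 6.62, 6.68, 6.91 and 7.15 in restrained rats, against 7.34, 7.58, 7.60 and 7.62 in unrestrained rats. Stress and control rats overlapped, 2 of the stress rats lying above control rat 1, whereas the groups that had inhaled linalool did not. Stress minus control was -0.29 (SE 0.13), and the same difference among rats given linalool was -0.69 (SE 0.13). The average of -0.49 (SE 0.09) was the smallest of the 6 genes and ranked 69 among all falls.

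Cd33 had log2 signals of 6.19, 6.51, 6.67 and 6.55 in stress rats, against 7.49, 7.13, 7.41 and 7.33 in control rats. In stress with linalool rats it stood at 6.29, 6.78, 6.10 and 6.0, against 7.40, 7.28, 7.39 and 7.08 in linalool rats. All restrained rats were below all unrestrained rats, and the unrestrained rats differed little among themselves. Stress minus control was -0.86 (SE 0.15), 1.81-fold lower, and the difference among rats given linalool was -0.998 (SE 0.15), 2.0-fold lower.

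Promoter sequences, from 250 bases before to 50 after an annotated start, were at hand for Gpr34, Cx3cr1 and Cd33, 3 of the 6 genes, and are shown because these receptors were lower in the same rats. They come from RefSeq, build GRCr8, and all lie on the minus strand. Capitals mark matches to GAGGAA or GGAAGT, the overlapping parts of GAGGAAGT, a core of the site of PU.1, the transcription factor that myeloid cells depend on. The Gpr34 window, chrX:11785787-11786086, and the Cx3cr1 window, chr8:128677017-128677316, begin inside the annotated genes, at 1 of several starts. The Cd33 window shown, chr1:103086638-103086937, is that of the outermost start.
Gpr34: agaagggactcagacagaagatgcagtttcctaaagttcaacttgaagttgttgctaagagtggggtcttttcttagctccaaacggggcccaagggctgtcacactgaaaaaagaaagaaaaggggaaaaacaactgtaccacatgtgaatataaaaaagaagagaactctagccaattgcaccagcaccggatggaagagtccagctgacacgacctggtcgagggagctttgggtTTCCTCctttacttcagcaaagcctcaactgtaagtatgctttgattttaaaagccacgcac
Cx3cr1: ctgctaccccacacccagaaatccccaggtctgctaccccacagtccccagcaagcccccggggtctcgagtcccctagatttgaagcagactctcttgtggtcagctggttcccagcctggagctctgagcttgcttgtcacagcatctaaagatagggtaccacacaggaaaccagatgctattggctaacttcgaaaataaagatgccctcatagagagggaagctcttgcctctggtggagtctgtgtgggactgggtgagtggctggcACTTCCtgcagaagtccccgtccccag
Cd33: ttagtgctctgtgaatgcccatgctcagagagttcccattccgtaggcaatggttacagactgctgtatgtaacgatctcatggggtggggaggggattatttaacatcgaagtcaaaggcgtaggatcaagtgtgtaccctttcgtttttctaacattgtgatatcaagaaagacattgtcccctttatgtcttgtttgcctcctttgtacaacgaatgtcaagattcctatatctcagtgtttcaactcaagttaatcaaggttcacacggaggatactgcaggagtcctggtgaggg

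The Gpr34 window held 1 match to GAGGAA, written as its reverse complement at position 239 of the window, and the Cx3cr1 window held 1 match to GGAAGT, also on the reverse strand, at position 274. The Cd33 window, and the window of a second Cd33 start at chr1:103074649-103074948, held 0 of either. Searched on both strands, GAGGAA occurred in 27.6% of 33469 promoters of the same length, GGAAGT in 22.6% and the whole GAGGAAGT in 2.42%, so that 1 short match in a window is common. None of the 4 windows held GAGGAAGT, the full palindrome of the glucocorticoid receptor (0.0149% of promoters) or its inner part ACANNNTGT (6.86%).

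Bin2 had log2 signals of 6.34, 6.53, 6.88 and 6.26 in stress rats, against 7.79, 7.45, 7.60 and 7.25 in control rats. In stress with linalool rats it stood at 6.26, 7.03, 6.52 and 6.80, against 7.27, 7.14, 7.53 and 7.48 in linalool rats. Restrained and unrestrained rats did not overlap, with stress with linalool rat 2 and linalool rat 2 the closest. Stress minus control was -1.02 (SE 0.17) and stress with linalool minus linalool -0.70 (SE 0.17). The gene's other probe set was too dim to be tested, with means of 5.02 ± 0.65 in stress with linalool rats, 4.94 ± 0.64 in stress rats, 4.93 ± 0.51 in linalool rats and 5.74 ± 0.81 in control rats (SD, n = 4 each). Its groups overlapped throughout.

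Plek had log2 signals of 6.0, 6.28, 6.25 and 6.39 in stress rats, against 7.32, 6.99, 7.26 and 7.17 in control rats. In stress with linalool rats it stood at 6.38, 6.90, 5.80 and 6.28, against 6.73, 6.88, 6.95 and 6.78 in linalool rats. The stress rats were clear of the controls, but stress with linalool rat 2 lay within the linalool group. Stress minus control was -0.96 (SE 0.17), and the difference among rats given linalool was -0.49 (SE 0.17). Every linalool rat was below every control rat for Plek, which held for 2.21% of all probe sets. The difference for linalool minus control was -0.35 (SE 0.17). The control rats also took part in the choice of the genes, so this comparison is not free of that choice.

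**Figure D1:**
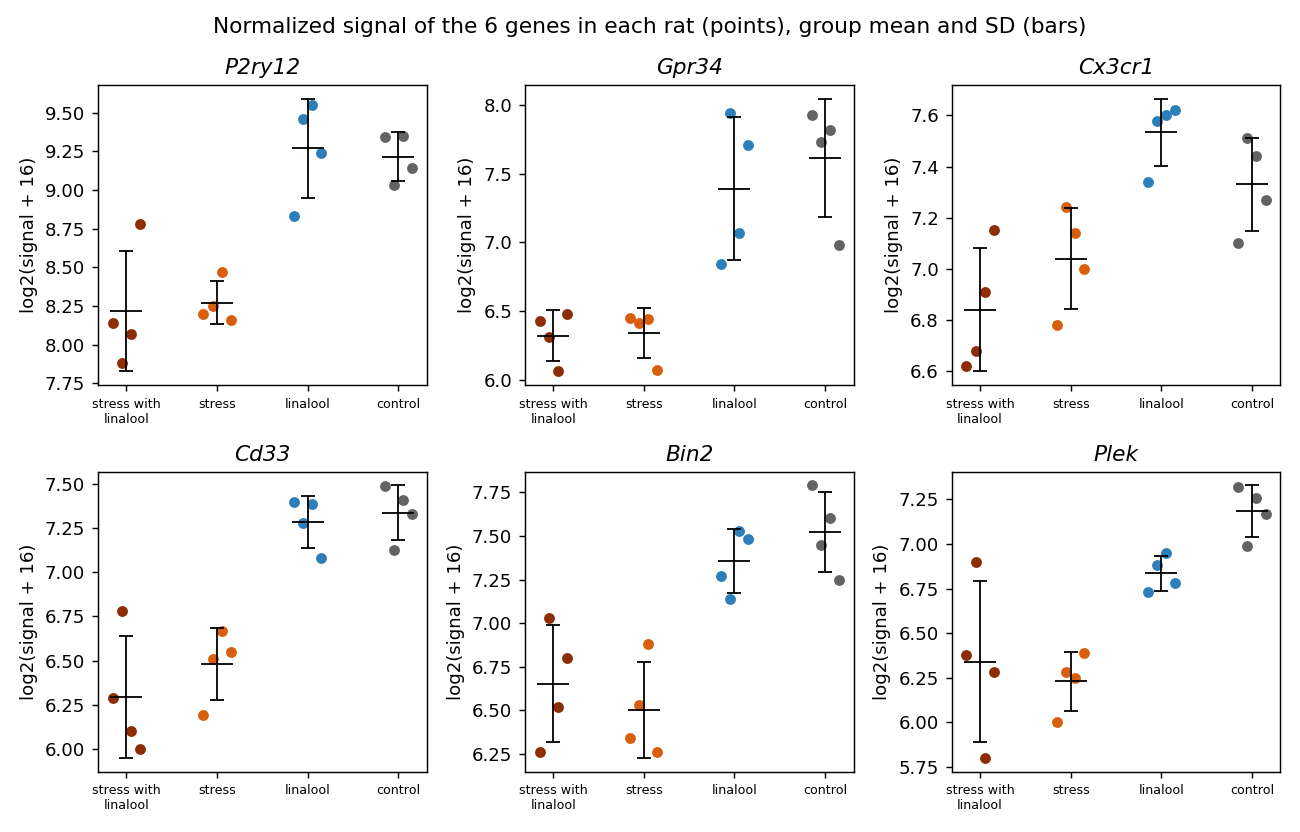
Normalized signal, as log2(signal + 16), of P2ry12, Gpr34, Cx3cr1, Cd33, Bin2 and Plek in each rat (points), with the mean and SD of each group of 4 rats (bars), for stress with linalool, stress, linalool and control from left to right. Restrained and unrestrained rats are separate for P2ry12, Gpr34, Cd33 and Bin2 and overlap for Cx3cr1 and Plek.

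Over the 6 genes the median of stress minus control was -0.95, where that of all probe sets was 0.00, and among rats given linalool it was -0.85, where that of all probe sets was -0.02. For stress minus control 168 of 18625 probe sets passed limma's test (0.902%), and 314 did among rats given linalool (1.69%), at a Benjamini-Hochberg adjusted p under 0.05. Averaged over both odour conditions 784 passed (4.21%), of which 493 were higher (2.65%) and 291 lower (1.56%) in restrained rats. The 6 genes were picked from among the lower ones, so their place in these counts is not a result. P2ry12, Gpr34, Cd33 and Bin2 were lower in every restrained rat than in any unrestrained rat, which 0.236% of all probe sets were. Taken by pairs of groups, 5 of the 6 genes, all but Cx3cr1, were lower in every stress rat than in any control rat, as 2.57% of all probe sets were, and 5, all but Plek, were lower in every stress with linalool rat than in any linalool rat, as 6.58% of all probe sets were. By size of the average fall, P2ry12 ranked 4, Cd33 9, Bin2 14 and Plek 25 among all probe sets.

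**Figure D2:**
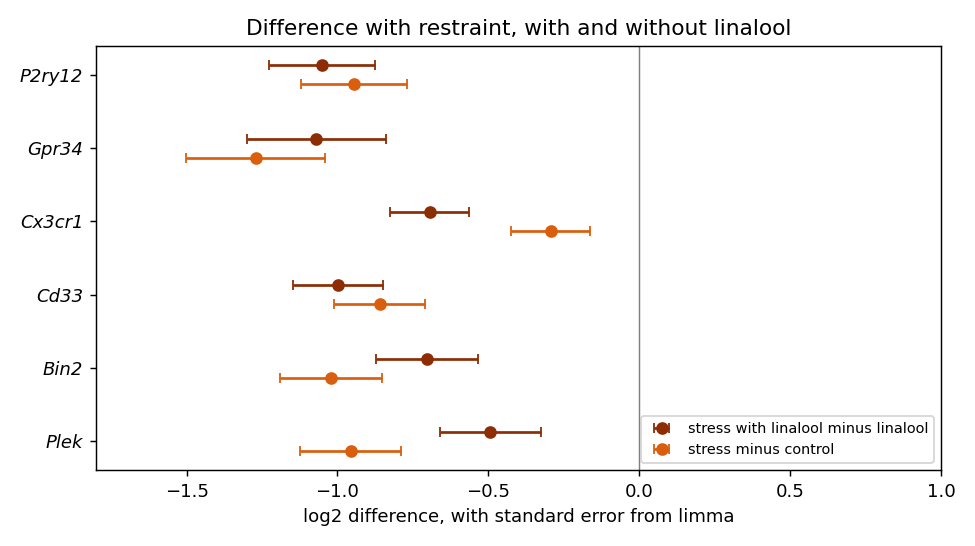
Difference in log2(signal + 16) with restraint for each of the 6 genes (rows), as stress with linalool minus linalool (upper point of each pair) and stress minus control (lower point), with limma's standard error as bars. All 12 differences lie below 0, from -1.27 for Gpr34 to -0.29 for Cx3cr1, both in stress minus control.

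Whether the odour itself moved these genes could be tested, because the average linalool effect is orthogonal to both differences with restraint from which they were chosen. None of the 6 passed limma's test for it, while 133 of all 18625 probe sets did (0.714%). Rats given linalool, restrained or not, differed from those without it by 0.00 for P2ry12 (95% interval -0.26 to 0.27, adjusted p = 0.992 by limma), by -0.12 for Gpr34 (-0.47 to 0.22, adjusted p = 0.765 by limma) and by 0.00 for Cx3cr1 (-0.19 to 0.20, adjusted p = 0.988 by limma). The intervals for the other genes were -0.35 to 0.11 for Cd33, -0.27 to 0.24 for Bin2 and -0.37 to 0.13 for Plek. A difference of the size seen with restraint thus lay outside each of these intervals, while smaller ones in either direction did not. Within restrained rats, stress with linalool minus stress ran from -0.20 for Cx3cr1 to 0.15 for Bin2. Within unrestrained rats, linalool minus control ran from -0.35 for Plek to 0.20 for Cx3cr1. Unlike the average, neither of these is orthogonal to the differences from which the genes were chosen.

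The interaction asks whether the difference with restraint changed when linalool was inhaled, as the difference with linalool minus that without. None of the 6 genes passed it by limma, nor did any of the 18625 probe sets (0%), of which 1489 had an unadjusted p under 0.05 and the smallest adjusted p was 0.0565. Cx3cr1 had the lowest value, -0.40 (95% interval -0.79 to -0.01, unadjusted p = 0.0456, adjusted p = 0.616 by limma), its difference with restraint being larger under linalool. Plek had the highest, 0.46 (-0.04 to 0.96, adjusted p = 0.647 by limma), its difference being smaller under linalool. Bin2 stood at 0.32 (-0.19 to 0.83), Gpr34 at 0.20 (-0.49 to 0.89), P2ry12 at -0.10 (-0.63 to 0.42) and Cd33 at -0.14 (-0.59 to 0.31). The genes were picked from the same 2 differences that the interaction subtracts, so these values are not wholly free of the choice. The intervals were wide, and those of Plek and Cx3cr1 reached values larger in size than their average differences with restraint, -0.72 (SE 0.12) and -0.49 (SE 0.09).

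The other listed genes of microglia differed by -0.42 to 0.51 on average with restraint. On 4 lists of microglial, myeloid, activation and signalling-partner genes, 59 of 86 genes on the array passed the filter, and 4 of them passed limma's test for the average difference with restraint, 3 lower and 1 higher, where 4.21% of all probe sets passed. With values as deposited, where the median of all probe sets itself stood at 0.21, 5 passed as higher and 0 as lower. With normalization, the median of the 59 genes was 0.03, with 34 differences above 0 and 25 below, and that of all probe sets was -0.01. In stress minus control 0 of the 59 passed by limma, with 11 at an unadjusted p under 0.05, and in stress with linalool minus linalool 0 passed, with 9.

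Apbb1ip, which encodes RIAM, an adaptor that links Rap1 to integrin activation, had log2 signals of 7.35, 7.06, 7.60 and 7.15 in stress rats and 6.98, 7.11, 7.17 and 7.09 in stress with linalool rats. It had 7.74, 7.42, 7.45 and 7.45 in linalool rats and 7.74, 7.75, 7.70 and 7.66 in control rats. Only stress rat 3 reached into the range of the unrestrained rats. The gene fell by 0.42 with restraint (SE 0.07, adjusted p = 0.0041 by limma). Sall1, a transcription factor that keeps microglial identity in mice, fell by 0.31 (SE 0.08, adjusted p = 0.0314), with 7.61 to 8.04 in restrained rats and 8.00 to 8.53 in unrestrained rats. Irf8, a transcription factor needed for myeloid development, fell by 0.37 on average (SE 0.10, adjusted p = 0.0496 by limma). It differed by -0.59 (SE 0.14) for stress minus control and by -0.14 (SE 0.14) for stress with linalool minus linalool. Its call was at the edge of the threshold and was lost in 20 of 26 other settings. Sall1 lost its call in 13 of 27.

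Mertk, a receptor tyrosine kinase with which microglia and astrocytes take up dying cells, rose. Its log2 signals were 7.99, 7.88, 7.93 and 7.92 in stress rats, 7.84, 7.93, 7.83 and 7.82 in stress with linalool rats, 7.34, 7.83, 7.40 and 7.41 in linalool rats and 7.79, 7.44, 7.30 and 7.44 in control rats. Linalool rat 2 lay within the restrained range and control rat 1 just below it, and the other unrestrained rats were well below. The average difference was 0.40 (SE 0.08, adjusted p = 0.0088 by limma).

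Of the homeostatic microglial genes other than the 6, 11 of 15 on the array were tested, with a median of 0.01 for the average difference. Tmem119, a surface protein particular to microglia in brain, differed by 0.15 (SE 0.10, adjusted p = 0.414), with 8.27 to 8.82 in restrained rats and 7.86 to 8.65 in unrestrained rats. It differed by 0.37 (SE 0.13) for stress minus control and by -0.07 (SE 0.13) for stress with linalool minus linalool. Csf1r, the receptor on which microglial survival depends, differed by 0.22 (SE 0.09, adjusted p = 0.187), with 8.90 to 9.54 in restrained rats and 8.73 to 9.26 in unrestrained rats. Neither passed limma's test, and the rats overlapped for both. Of the general myeloid genes, 28 of 37 on the array were tested, with a median of 0.04 for the average difference. That average joined unlike values. Stress minus control had a median of -0.12, with 19 of the 28 differences below 0. Stress with linalool minus linalool had a median of 0.22, with 23 above 0. In each of these, 0 of the 28 passed limma's test. On average over both odour conditions, Aif1, the gene of the microglial stain Iba1, differed by -0.19 (SE 0.11, adjusted p = 0.372 by limma). The integrin gene Itgam (-0.09, SE 0.23), the complement gene C1qa (0.14, SE 0.15) and Ptprc, the gene of CD45 (0.11, SE 0.11), did not pass either. Aif1 differed by -0.52 (SE 0.16) for stress minus control and by 0.14 (SE 0.16) for stress with linalool minus linalool. Cd68 was too dim to be tested.

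**Figure D3:**
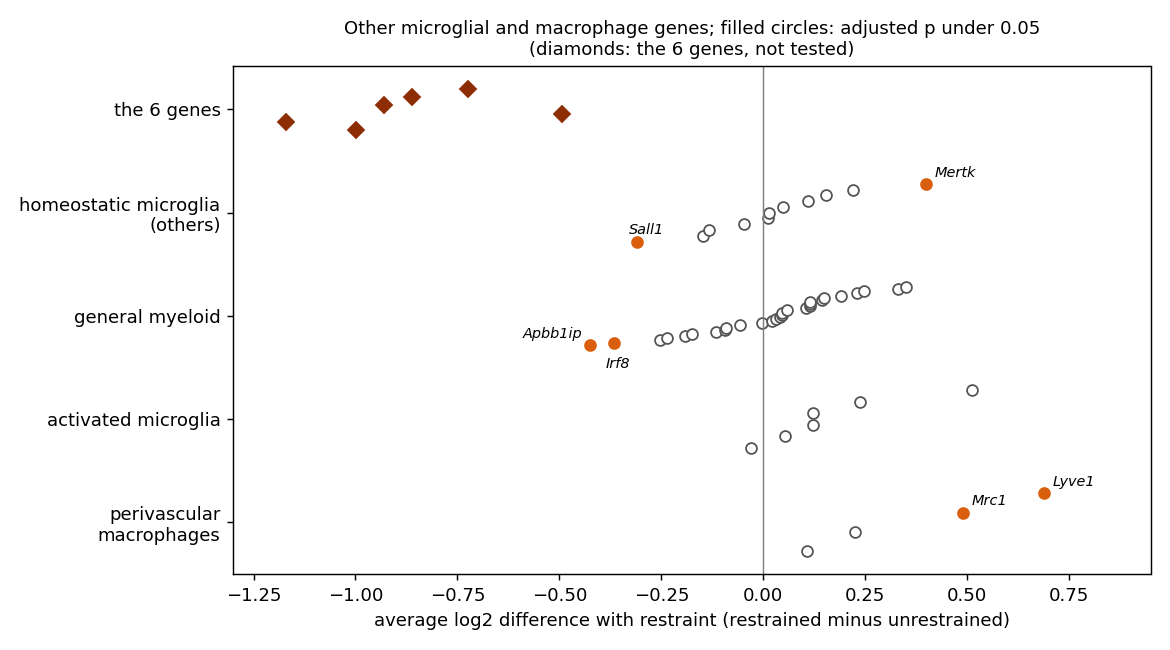
Average log2 difference with restraint (restrained minus unrestrained rats), 1 point per gene, for the 6 genes (diamonds, not tested) and for lists of other homeostatic, general myeloid, activated and perivascular macrophage genes (circles, filled where limma's adjusted p was under 0.05). The 6 genes lie between -1.17 and -0.49, while the other homeostatic and general genes lie between -0.42 and 0.40.

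Set side by side for each rat, the mean log2 signal of the 6 genes ran from 6.58 to 6.97 in restrained rats and from 7.40 to 7.83 in unrestrained rats. The mean of the 39 other homeostatic and general myeloid genes ran from 7.59 to 8.01 in restrained rats and from 7.58 to 7.85 in unrestrained rats. The first pair of ranges is apart by the choice of the genes. The second pair overlaps, but it joins unlike differences. Means of the other genes were 7.71 (SD 0.07) in stress rats against 7.83 (SD 0.02) in control rats. They were 7.81 (SD 0.23) in stress with linalool rats against 7.66 (SD 0.08) in linalool rats. Stress with linalool rats 1 and 2 had the highest mean of the other genes, 8.01 each, against 7.63 and 7.59 in rats 3 and 4 of that group, yet all 4 were low for the 6 genes.

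**Figure D4:**
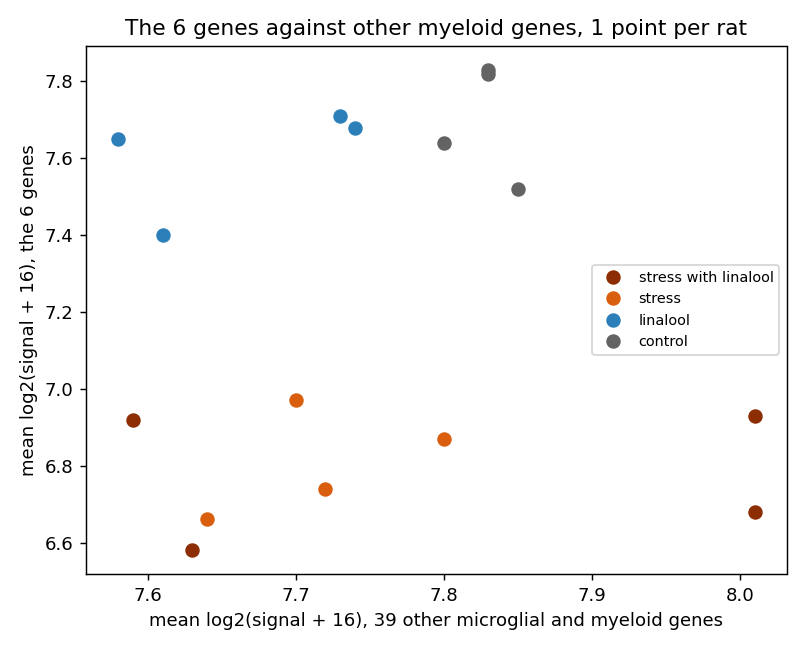
Mean log2(signal + 16) of the 6 genes (vertical axis) against that of 39 other microglial and myeloid genes (horizontal axis), 1 point per rat, coloured by group. Restrained rats lie at 6.58 to 6.97 on the vertical axis and unrestrained rats at 7.40 to 7.83, and the 2 sets overlap on the horizontal axis.

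Genes of activated microglia were mostly too dim to be measured, 6 of 18 on the array passing the filter, and none of the 6 passed limma's test for the average difference. Their median was 0.12, the highest value being 0.51 for Lgals3, the gene of galectin-3 (SE 0.19, adjusted p = 0.135), which lay outside the rule for named genes and was chosen after its value was seen. The cytokine genes Il1b, Tnf and Il6 had normalized signals of 8.08 to 61.8, 2.82 to 41.1 and 1.05 to 27.3 over all rats.

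Ligands, enzymes and signalling proteins that act with the 6 products, 14 of 16 on the array tested, had a median of -0.04, and none passed. Cx3cl1, which encodes fractalkine, differed by -0.14 (SE 0.12, adjusted p = 0.607 by limma), with means of 9.77 in stress with linalool rats, 9.73 in stress rats, 9.86 in linalool rats and 9.93 in control rats. Ptpn6 and Ptpn11, the phosphatases SHP-1 and SHP-2 that bind inhibitory receptors such as CD33, differed by 0.06 (SE 0.13) and 0.11 (SE 0.05). Abhd12 and Abhd16a, enzymes that break down and make lysophosphatidylserine, differed by -0.17 (SE 0.07) and -0.07 (SE 0.09). Il34 and Csf1, the ligands of CSF1R, differed by 0.02 (SE 0.09) and -0.01 (SE 0.08).

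Perivascular macrophages, which share many genes with microglia, had 2 markers that rose. Of 5 perivascular macrophage markers on the array 4 were tested, all 4 differences were above 0 and 2 passed limma's test, which 2.65% of all probe sets did in that direction. They are named here after their values were seen. Lyve1, a hyaluronan receptor of border macrophages and lymphatic vessels, had log2 signals of 7.66, 7.30, 7.78 and 7.54 in stress rats, 7.83, 6.99, 7.78 and 7.63 in stress with linalool rats, 6.79, 7.31, 6.88 and 6.98 in linalool rats and 6.52, 6.75, 6.88 and 6.90 in control rats. Stress with linalool rat 2 lay among the linalool rats, stress rat 2 was just below linalool rat 2, and the other 6 restrained rats were above every unrestrained rat. It rose by 0.69 (SE 0.12, adjusted p = 0.0038), and Mrc1, the mannose receptor, rose by 0.49 (SE 0.11, adjusted p = 0.0193). The summed normalized signal of the 5 markers was 483.8 to 739.6 in stress rats against 383.6 to 398.8 in control rats, and 362.9 to 673.2 in stress with linalool rats against 345.1 to 379.2 in linalool rats.

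Markers of blood leukocytes were dim on average, and none of the 6 on the array passed the filter. Over all rats, Ccr2 stood at 0.604 to 14.5 and Cd79b at 2.03 to 6.84. The highest signals were those of S100a9, at 14.6 to 216, and S100a8, at 1.4 to 84.9. The summed signal of the 6 leukocyte markers was 143 to 298.9 in stress rats against 82.83 to 111.7 in control rats. It was 69.44 to 355.7 in stress with linalool rats against 61.36 to 106.9 in linalool rats. The summed signal of 3 red cell genes was 5383 to 10020 in stress rats against 2938 to 5880 in control rats, and 2730 to 6702 in stress with linalool rats against 2969 to 7628 in linalool rats. For 4 platelet markers, which bear on Plek, it was 246.6 to 325.1 in stress rats against 207.8 to 261.3 in control rats, and 187.8 to 340.4 in stress with linalool rats against 196.3 to 316.5 in linalool rats. Some markers of other brain cells were lower in restrained rats. Of 5 oligodendrocyte markers tested, 4 differences were below 0 and 1 passed, where 1.56% of all probe sets passed as lower. That was Opalin, a gene of myelinating oligodendrocytes, which fell by 0.76 (SE 0.19, adjusted p = 0.0305 by limma). Cnp (-0.25, SE 0.08, adjusted p = 0.0927 by limma) and Mbp (-0.08, SE 0.04) did not pass. The summed signal of these 5 markers was 19460 to 21490 in stress rats against 20890 to 24960 in control rats, and 18080 to 20590 in stress with linalool rats against 19570 to 22350 in linalool rats. Of 5 endothelial markers tested, 3 differences were below 0, 2 were above and 1 passed, where 1.56% of all probe sets passed as lower. That was the transporter gene Slco1a4, which fell by 0.34 (SE 0.09, adjusted p = 0.0472 by limma). The largest endothelial difference was a rise, 0.40 for Flt1 (SE 0.16, adjusted p = 0.162 by limma), which did not pass. Among 27 other settings, Opalin lost its call in 9 and Slco1a4 in 20. The summed signal of the 5 endothelial markers was 2341 to 3428 in stress rats against 2769 to 3463 in control rats. It was 1916 to 2735 in stress with linalool rats against 2554 to 2879 in linalool rats. None of 6 astrocyte or 5 neuronal markers passed, with medians of 0.08 and 0.00. The part of any of these cells in the lower signal of the 6 genes was not tested.

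Genes of the acute stress response were higher in restrained rats. Sgk1, a gene induced by glucocorticoids, had log2 signals of 11.28 to 11.96 in restrained rats and 9.13 to 9.78 in unrestrained rats, and Fkbp5, another such gene, rose by 0.81 on average (SE 0.10). The heat shock gene Hspa1a rose by 3.70 (SE 0.38) and the immediate early gene Fos by 1.07 (SE 0.20, adjusted p = 0.0069 by limma). Fos differed by 0.62 (SE 0.29, adjusted p = 0.39 by limma) for stress minus control, which did not pass. For stress with linalool minus linalool it differed by 1.52 (SE 0.29, adjusted p = 0.014 by limma).

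Within groups, no pair of the 6 genes passed a test of common movement from rat to rat. After removal of the group means, the 15 pairs of genes had Pearson correlations with a median of 0.23, 11 of them positive, over 16 rats. With values as deposited the median was 0.53 and 2 pairs passed. With normalization, Cd33 and Plek had the highest correlation, r = 0.79 (p = 0.00877 by permutation within groups, adjusted p = 0.132 over the 15 pairs). Their Spearman's rho was 0.69 (permutation p = 0.0133, adjusted 0.199), and r was 0.71 without the 2 rats farthest from the median. P2ry12 and Cx3cr1 had r = 0.54 (permutation p = 0.0573, adjusted 0.429) and rho = 0.39 (permutation p = 0.147, adjusted 0.554), and r fell to 0.23 without the 2 farthest rats.

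**Figure D5:**
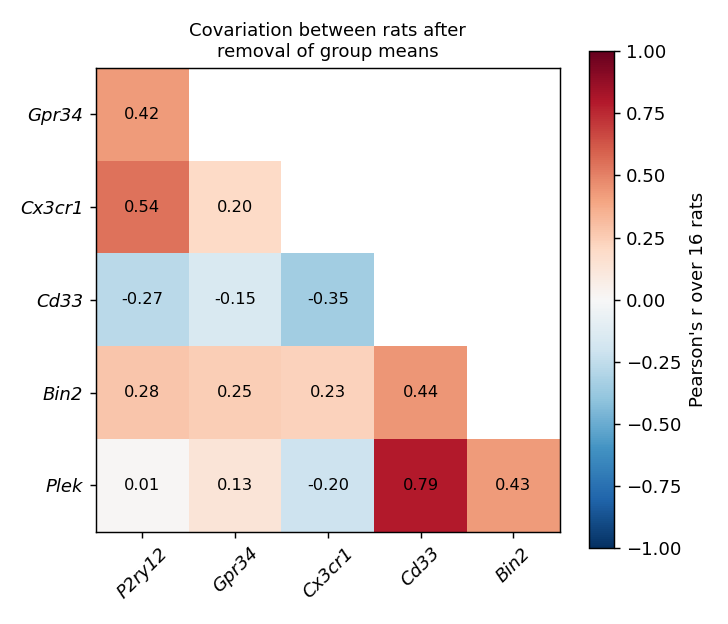
Pearson's r between the deviations of each pair of the 6 genes from their group means over 16 rats, as colour and printed value. Cd33 with Plek stands highest at 0.79, and the other pairs lie between -0.35 and 0.54.

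The same deviations were set against 3 technical measures of each array, its median deposited signal, its BioC signal and the ratio of the 3' to the 5' beta-actin probe sets, which ran from 1.06 to 2.30 on the log2 scale. None of the 18 relations passed by either measure. The closest was Cx3cr1 with the actin ratio, r = -0.60 (permutation p = 0.0143, adjusted 0.257), rho = -0.75 (permutation p = 0.00494, adjusted 0.0889) and r = -0.60 without the 2 farthest rats. Mean actin ratios were 1.53 in stress with linalool rats, 1.68 in stress rats, 1.62 in linalool rats and 1.54 in control rats. Nor did any of 24 relations with Sgk1, Fkbp5, Hspa1a and Fos pass. Cx3cr1 with Fos was closest, with r = -0.75 (permutation p = 0.0121, adjusted 0.29), rho = -0.69 (permutation p = 0.0173, adjusted 0.415) and r = -0.69 without the 2 farthest rats.

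The genes whose signal most resembled the mean of the 6 standardized genes over the 16 rats, among 10244 candidates, were Pspc1, Car4, Auh, Tmem234 and Coq10a, all at r = 0.86. That likeness takes in the difference between restrained and unrestrained rats, and none of the 5 belongs to the lists of microglial genes. Pspc1 encodes a paraspeckle protein, Car4 a membrane-bound carbonic anhydrase and Auh a mitochondrial RNA-binding hydratase. Once the group means were removed the most alike were Poll (r = 0.79), Apoc1 (0.78), Ctnnbip1 (0.76), Vasp (0.75) and Amz2 (0.72). The 2 lists of 5 share no gene.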

How the data were processed

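Hypothalamic RNA of 16 rats was hybridized to single-colour Affymetrix arrays. The deposited table holds signal intensity on a linear scale, made with MAS5 per the submitters' processing notes, and no source used here states its scaling target. As array medians of the intensity values differed, log2 values were quantile-normalized over 31099 probe sets and then expressed as log2(signal + 16), 16 being the pseudocount. This understates changes of dim genes and cannot show a change shared by most transcripts. Then 57 control probe sets were dropped, and those with a mean at or above the 40th percentile (18625) were kept. A group-means model was fitted in limma 3.58.1 (R 4.3.3), with two-sided tests and Benjamini-Hochberg adjustment over all kept probe sets, and was tested on simulated data. The brightest probe set stood for a gene. Correlations used 100000 permutations within groups. The 6 genes and all gene lists were chosen with earlier results of these data known. The naming rule took the 6 genes, genes of the microglial and partner lists that passed under restraint, 11 fixed genes and the 5 most alike genes, with and without group means. Other named genes, such as signalling partners and markers of other cells, lie outside it and were chosen after their values were seen. Each array is from a separate rat per the labels, with no read depth. Alternatives covered normalization, pseudocount, filter, replicate number, BioC spike-in, actin ratio, probe set choice and each rat left out.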

Additional observations from a re-analysis of the deposited data

Results flagged for a closer look

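Of 32 sets of 4 rats (1 per probe set and group), 2 held a rat far from its 3 companions, where chance gives about 1 in 20. Cx3cr1 stood at a log2 signal of 7.34 in linalool rat 1, against 7.58 to 7.62 in the other linalool rats. Gpr34 stood at 6.07 in stress rat 4, against 6.41 to 6.45 in the other stress rats.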

How the results depend on the processing

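The median average difference of the 6 genes with restraint, -0.90, was -0.68 with values as deposited and -0.64 with a pseudocount of 64. With values as deposited, the median of all probe sets shifted to 0.21, and the 6 genes stood at -0.887 relative to it, against -0.885 with normalization. Leaving out each rat in turn gave -0.94 to -0.86. The number of the 6 genes passing for linalool or for the interaction was 0 in each of 25 alternatives. With values as deposited, 2 of the 15 gene pairs passed for covariation (median r = 0.53), and 0 in the others run. The 4 other listed genes called (1 higher, 3 lower) became 5 higher and 0 lower with values as deposited, and 2 with no filter, with a 60th percentile filter (which kept only P2ry12 of the 6) and on the arrays with low BioC, and 2 to 3 with a rat left out (2 without stress rat 1 or 3, linalool rat 1, 3 or 4, or stress with linalool rat 1). With values as deposited Sall1 (adjusted p = 0.626), Irf8 (0.456) and Apbb1ip (0.302) lost their calls, Apbb1ip in no other setting that tested it, Mrc1 (adjusted p = 0.0575) and Fos (0.0637) lost theirs only on the arrays with low BioC, and Mertk and Lyve1 kept theirs in all alternatives run. Values not called changed sign with values as deposited for Aif1 (0.031), Itgam (0.12) and Cx3cl1 (0.084), with the mean of all probe sets for Aif1 (0.029), and with a rat left out for Itgam (-0.20 to 0.10). Linalool effects and interactions near 0 changed sign. With values as deposited, P2ry12 had -0.064 for linalool and 0.16 for the interaction, Cd33 0.13 for the interaction and Cx3cr1 -0.038 for linalool. Linalool values with arrays scaled to a trimmed mean were -0.0071 for P2ry12 and 0.0045 for Bin2, and Cx3cr1 had -0.00087 with a pseudocount of 1 and -0.0093 with the actin ratio as covariate. On the arrays with low BioC, P2ry12 had 0.087 for the interaction and Cx3cr1 -0.0019 for linalool. With each rat left out, linalool values ran from -0.090 to 0.076 for P2ry12, from -0.049 to 0.040 for Cx3cr1 and from -0.075 to 0.053 for Bin2, and the interaction of P2ry12 from -0.29 to 0.0074. Numbers of all probe sets called moved by over 1.5 times in several settings, including stress minus control without control rat 2 or 3 or stress rat 1, 2 or 4, and the same with linalool without linalool rat 1 or 3 or stress with linalool rat 1 or 2. They ran from 54 to 259 for stress minus control (168), 73 to 1103 for stress with linalool minus linalool (314), 458 to 1035 for average restraint (784), 0 to 357 for average linalool (133) and 0 to 14 for the interaction (0). The share of calls higher under average restraint was 98.2% with values as deposited and 62.9% with normalization. Rats with the same replicate number did not pair consistently (24 pairs, r from -0.164 to 0.226, 4 above 0.1), and with the number as a block the median of the 6 genes stayed at -0.90 and 4 other genes were called, Csf1r (adjusted p = 0.0467) in place of Sall1 (0.0539). The causes of these shifts were not tested.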
